A study of Homo sapiens with 38 samples.

Results

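Transcript levels of the EGFR family, of the receptor MET, of EGF ligands and of inhibitors of these receptors were followed in HCT116 cells, an established human colorectal carcinoma line, after silencing of VPS4A, VPS4B or both genes. The 10 members were chosen by symbol, after the RefSeq identifiers of the deposited table had been matched to symbols, and all 10 were among the 12627 genes listed. They were the ligand genes HBEGF, EREG, AREG and TGFA, the receptor genes EGFR, ERBB2, ERBB3 and MET, and the inhibitor genes LRIG1 and ERRFI1. Expression had been measured with a targeted amplicon panel read on an Ion Proton sequencer, 1 amplicon for each transcript. A level is therefore given as reads per 1000000 of a library total multiplied by its TMM factor (rpm), without a length term, and levels can be compared between conditions but not between genes.

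All cells were collected at 72 h. Non-transfected cells (NT) received no siRNA and gave 4 libraries. Cells of the siCTRL#1 condition received 60 nM of a non-targeting duplex and gave 5 libraries. Cells of the siCTRL#2 condition received another non-targeting duplex, at a dose that the labels do not give, and gave 4 libraries. In the single silencing conditions, 30 nM of siVPS4A#1, siVPS4A#2, siVPS4B#1 or siVPS4B#2 was combined with 30 nM of siCTRL#1. In combined silencing, siVPS4A+B#1 joined 30 nM of siVPS4A#2 to 30 nM of siVPS4B#1, and siVPS4A+B#2 joined 30 nM of siVPS4A#1 to 30 nM of siVPS4B#2, both with 0 nM of siCTRL#1. Each of these 6 silencing conditions had 4 usable libraries, and the replicate number marks the batch. The dose of siCTRL#1 thus differed between the silencing conditions, and its part in a difference cannot be told apart from that of the silencing wherever the conditions compared received unequal amounts. The 37 libraries analysed held between 5090785 and 11035016 reads, with a median of 7561654.

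EGFR, ERBB2 and ERBB3 are receptor tyrosine kinases that signal as dimers, and MET is the receptor for HGF. The EGF ligands are made as membrane-anchored precursors and released by sheddases such as ADAM17, while LRIG1 and ERRFI1 restrain the activated receptors. Activated receptors are ubiquitinated and sorted by ESCRT complexes into vesicles inside the endosome, and the VPS4 ATPases take these complexes apart. Only transcripts were measured here, so neither receptor protein nor its sorting was observed.

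The silenced genes were examined first. VPS4A (NM_013245) was present at 3.52, 1.63, 1.88 and 1.71 rpm in the libraries of siVPS4A#1 and at 5.89, 6.21, 8.93 and 10.5 in those of siVPS4A#2. In combined silencing VPS4A stood at 12.9, 33.9, 22.4 and 10.6 for siVPS4A+B#1 and at 3.04, 7.69, 4.32 and 5.05 for siVPS4A+B#2. The other analysed libraries ranged from 172.0 to 325.4, so that no library of VPS4A silencing overlapped them. Residual VPS4A was highest in siVPS4A+B#1, with a log2 fold change of -3.33 against siCTRL#1, beside -5.05 in siVPS4A+B#2.

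VPS4B (NM_004869) was present at 0.763, 0.680, 0.133 and 0.154 rpm in the libraries of siVPS4B#1 and at 0.945, 0.720, 1.05 and 1.57 in those of siVPS4B#2. It stood at 0.312, 0.456, 0.358 and 1.03 for siVPS4A+B#1 and at 1.52, 1.49, 1.28 and 0.842 for siVPS4A+B#2. These were between 1 and 16 reads a library, while the other analysed libraries ranged from 14.3 to 38.8 rpm.

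The library labelled as replicate 2 of siVPS4A#1 went against its label and was left out of every comparison. It held 669257 reads, and VPS4B, which siVPS4A#1 does not target, was at 1 read (1.62 rpm), against 21.4 to 32.1 in the other libraries of that condition. VPS4A was at 11.3 rpm. Its deviations from the gene means had a correlation of 0.654 across 9471 genes with the mean profile of siVPS4A+B#1, of 0.277 with that of siVPS4A+B#2 and of -0.095 with that of siVPS4A#1. What the library contains was not tested further, and where the comparisons with siVPS4A#1 change on keeping it, the value is given.

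A gene was called changed when limma, fitted across all genes on log2(rpm + 1) with the batch as a term, gave an adjusted p under 0.05 together with a fold change of 1.5 or more. Combined silencing was called when a gene passed in the same direction in 4 comparisons, both duplex pairs against NT and both against siCTRL#1, which share their controls and silenced libraries. By this rule 1 of the 10 members rose, beside 3.96% of all genes, and 0 members fell, beside 4.16%. A count of 1 among 10 is close to that background. For the count of 0, ERBB2 was lower at an unadjusted p under 0.05 in all 4 comparisons, and edgeR and DESeq2, run on the recovered reads, each called 0 members. The mean log2 fold change over the 4 comparisons ran from -0.57 for ERBB2 to 1.30 for HBEGF, with a median of 0.018 over the members and of -0.034 over all genes.

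The same rule with the single duplexes gave no member. In VPS4B silencing limma called 0 members up, beside 0.483% of all genes, and 0 down, beside 0.634%. In VPS4A silencing it called 0 members up, beside 0% of all genes, and 0 down, beside 0.00792%, which was VPS4A itself. In both cases 0 members passed at an unadjusted p under 0.05 in all 4 comparisons, and edgeR and DESeq2 called 0.

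Counted comparison by comparison, the members moved more often. Against siCTRL#1, siVPS4B#1 and siVPS4A+B#1 had the same calls, EGFR, MET and HBEGF up and TGFA down, and the other duplexes had other sets. Against NT, 7 members were called in siVPS4A+B#1 beside 26% of all genes, and 7 in siVPS4A+B#2 beside 28.8%. Without replicate 4 of siVPS4A+B#1, 4 of its calls ended, EGFR at 0.52, ERBB2 at -0.41, AREG at 0.57 and TGFA at -0.50. DESeq2 ended 3 of them, ERBB2 at -0.57, AREG at 0.54 and TGFA at -0.55, as did keeping the left-out library (-0.57, 0.61 and -0.59). Without replicate 3 of siVPS4A+B#2, 3 of its calls ended, ERBB2 at -0.44, TGFA at 0.54 and LRIG1 at -0.56, and keeping the left-out library ended those of ERBB2 (-0.60) and TGFA (0.60). Against siCTRL#1, 4 members were called in siVPS4A+B#1 beside 22.1% of all genes, and 4 in siVPS4A+B#2 beside 28.8%. For the single duplexes the counts against siCTRL#1 were 3 in siVPS4A#1 beside 22%, 4 in siVPS4B#1 beside 12.9% and 3 in siVPS4B#2 beside 7.57%. In siVPS4A#2 limma called 0 members, beside 0.0871% of all genes, with 0 at an unadjusted p under 0.05 and 0 by edgeR and by DESeq2. Apart from siVPS4A#2, the share of members called lay above that of all genes in these comparisons. The 10 genes were chosen with earlier results of these data known. The counts of 3 in siVPS4A#1 and 4 in siVPS4A+B#2 lay close to their backgrounds. In siVPS4A+B#2 against siVPS4B#2 the share lay below, with 2 members beside 25.7%. The counts are thus too small to be read as a trait of the members.

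**Figure D1:**
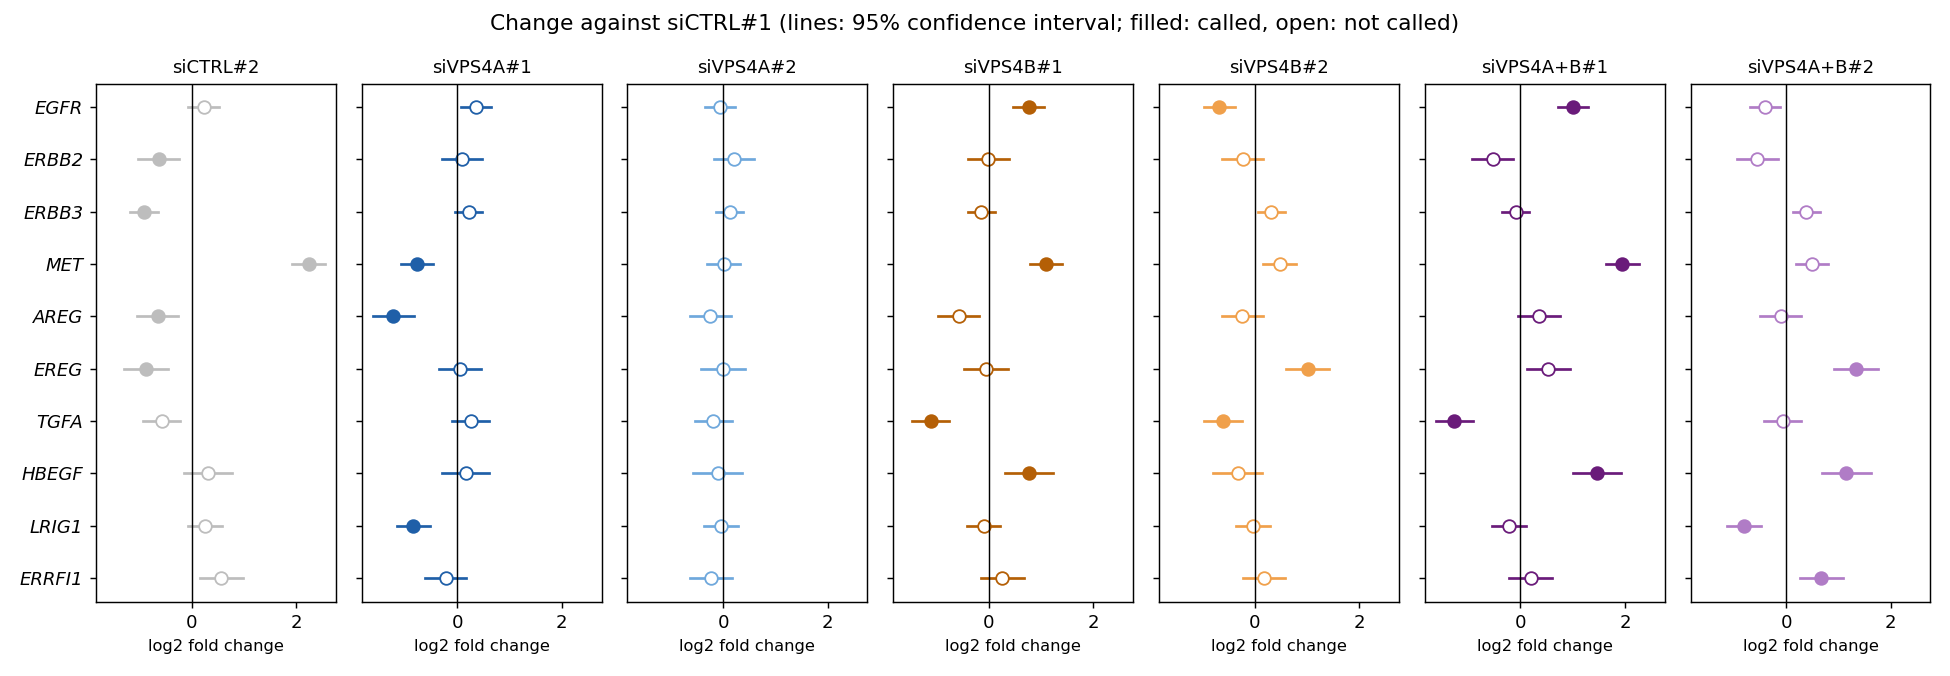
Log2 fold change of each of the 10 members (horizontal axis: log2(rpm + 1), fitted by limma) in the silencing conditions and siCTRL#2 against siCTRL#1; points are estimates, lines their 95% confidence intervals and filled points the calls. HBEGF stood at 1.46 and 1.15 in the duplex pairs, and MET at 1.95 and 0.49.

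The plot of the changes against siCTRL#1 sets the duplexes side by side. HBEGF was called in the same direction in both duplex pairs. EGFR was high with siVPS4B#1 and low with siVPS4B#2, EREG was highest with siVPS4B#2 and TGFA lowest with siVPS4B#1, whether the duplex was given alone or in a pair. LRIG1 had its low values where siVPS4A#1 was present. MET had its highest values where siCTRL#1 was absent, with the exception of siVPS4A+B#2.

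HBEGF (NM_001945, minus strand, chr5:139712428-139726188 in GRCh37) encodes heparin-binding EGF-like growth factor, a ligand of EGFR and ERBB4. Its level was 44.9, 42.3, 74.1 and 64.8 rpm in the libraries of siVPS4A+B#1 and 39.6, 47.6, 50.1 and 40.2 in those of siVPS4A+B#2. The NT libraries had 37.3, 15.7, 14.3 and 16.9, and the siCTRL#1 libraries 15.2, 21.3, 19.8, 22.3 and 19.8. All libraries of combined silencing lay above all of these controls, the closest of which was replicate 1 of NT. The siCTRL#2 libraries, at 29.0, 19.4, 27.6 and 22.3, lay below them as well.

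HBEGF rose in both pairs, by a log2 fold change of 1.46 against siCTRL#1 in siVPS4A+B#1 (SE 0.23, limma adjusted p = 2.4e-06) and of 1.15 in siVPS4A+B#2 (SE 0.23, limma adjusted p = 6.9e-05). Against NT the values were 1.45 (limma adjusted p = 3.42e-06) and 1.14 (limma adjusted p = 0.000114). HBEGF was higher in 4 of 4 batches in each of the comparisons. The order of its condition means ran from siVPS4A+B#1 (56.5 ± 15.4, SD, n = 4) over siVPS4A+B#2 (44.4 ± 5.3), siVPS4B#1 (34.2 ± 7.29), siCTRL#2 (24.6 ± 4.49), siVPS4A#1 (22.1 ± 2.51), NT (21.0 ± 10.9), siCTRL#1 (19.7 ± 2.74) and siVPS4A#2 (17.9 ± 1.17) to siVPS4B#2 (16.4 ± 7.39). Neighbours in this order overlapped throughout. The call for combined silencing held on leaving out each library in turn.

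Among the single duplexes the HBEGF level was 28.2, 35.7, 28.9 and 43.9 for siVPS4B#1 and 10.1, 22.6, 9.92 and 23.0 for siVPS4B#2. The siVPS4B#1 libraries lay above all siCTRL#1 libraries, and those of siVPS4B#2 were spread around them. HBEGF rose in siVPS4B#1 by 0.77 (SE 0.23, limma adjusted p = 0.0116, higher in 4 of 4 batches), a call that ended at 0.66 without replicate 4 of siVPS4B#1 and at 0.74 with the left-out library kept. Against siCTRL#2 the siVPS4B#1 value was 0.46 (limma adjusted p = 0.13) and not called. In siVPS4B#2 the value against siCTRL#1 was -0.33 (limma adjusted p = 0.37). The VPS4A duplexes gave ranges of 18.5 to 23.9 and 16.5 to 19.3 rpm, among the controls.

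EREG (NM_001432, plus strand, chr4:75230862-75254466 in GRCh37) encodes epiregulin, which binds EGFR and ERBB4. Its level was 551.1, 711.1, 717.1 and 668.2 rpm in siVPS4A+B#2 and 497.8, 489.5, 556.6 and 557.2 in siVPS4B#2. The siCTRL#1 libraries had 252.7, 281.5, 232.9, 251.2 and 290.8, the NT libraries 636.8, 295.7, 313.6 and 257.8, and the siCTRL#2 libraries 244.1, 103.8, 143.5 and 109.6. Every library that received siVPS4B#2 lay above every siCTRL#1 library, while replicate 1 of NT reached into their range. The siVPS4A+B#1 libraries spanned 269.0, 331.8, 434.3 and 517.6, and the siVPS4B#1 libraries 194.2, 273.5, 232.0 and 320.5.

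Against siCTRL#1, EREG rose in siVPS4B#2 by 1.01 (SE 0.21, limma adjusted p = 0.000772) and in siVPS4A+B#2 by 1.34 (limma adjusted p = 1.19e-06), in 4 of 4 batches each. Against NT the values were 0.58 (limma adjusted p = 0.0388), under the fold threshold, and 0.90 (limma adjusted p = 0.000576). In siVPS4A+B#1 the value of 0.53 against siCTRL#1 (limma adjusted p = 0.0388) was under the fold threshold. EREG was also called lower in siCTRL#2 than in siCTRL#1, with -0.87 (limma adjusted p = 0.00116). Its condition means ran from 661.9 ± 77.0 in siVPS4A+B#2 and 525.3 ± 36.7 in siVPS4B#2 over 388.2 ± 109.9 in siVPS4A+B#1 and 376.0 ± 175.4 in NT to 150.2 ± 65.0 in siCTRL#2. The conditions between NT and siCTRL#2 held means of 274.9 in siVPS4A#1, 261.8 in siCTRL#1, 259.6 in siVPS4A#2 and 255.1 in siVPS4B#1, and neighbours in the order overlapped.

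AREG (NM_001657, plus strand, chr4:75310853-75320722 in GRCh37) lies next to EREG and encodes amphiregulin, an EGFR ligand. The hg19 assembly holds a near-identical copy of the gene, AREGB, so reads of the 2 copies may not be separable and the level is uncertain. AREG was at 190.9, 102.7, 198.1 and 206.5 rpm in siVPS4A#1 and at 472.9, 472.7, 301.8, 457.2 and 378.1 in siCTRL#1. The siVPS4A#1 libraries lay below all siCTRL#1 libraries, replicate 3 standing lowest. AREG fell by 1.22 on the log2 scale in siVPS4A#1 (SE 0.19, limma adjusted p = 1.98e-06) against siCTRL#1, while the value against siCTRL#2 was -0.57 (limma adjusted p = 0.0244), under the fold threshold. siVPS4A#2 gave 434.2, 384.0, 227.6 and 361.9 rpm, within the siCTRL#1 range but for replicate 3.

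In combined silencing AREG was at 798.7, 537.9, 296.2 and 577.0 in siVPS4A+B#1 and at 371.2, 436.8, 220.2 and 572.6 in siVPS4A+B#2. NT had 668.3, 403.3, 238.3 and 220.7, and siCTRL#2 had 229.6, 391.6, 143.7 and 345.4. These conditions overlapped, and replicate 3 was the lowest library in each condition but NT. The values against siCTRL#1 were 0.36 (limma adjusted p = 0.152) for siVPS4A+B#1 and -0.10 (limma adjusted p = 0.695) for siVPS4A+B#2. Against NT, AREG was at 0.59 in siVPS4A+B#1 (limma adjusted p = 0.016), a call that ended at 0.31 without replicate 4 of NT, at 0.47 without replicate 1 and at 0.57 without replicate 4 of siVPS4A+B#1. It also ended at 0.58 without replicate 2 of NT, replicate 1 of siVPS4B#2 or replicate 1, 2 or 3 of siVPS4A+B#2, and at 0.48 with library totals. The order of means ran from 552.5 ± 205.8 in siVPS4A+B#1 over siCTRL#1 (416.5 ± 75.2), siVPS4A+B#2 (400.2 ± 146.4) and NT (382.6 ± 207.4) to siVPS4A#1 (174.6 ± 48.3), with siVPS4B#2, siVPS4A#2, siVPS4B#1 and siCTRL#2 between NT and siVPS4A#1, and neighbours overlapped throughout.

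TGFA (NM_003236, minus strand, chr2:70674416-70781325 in GRCh37) encodes transforming growth factor alpha, an EGFR ligand. Its level was 53.7, 42.6, 39.0 and 36.5 rpm in siVPS4B#1 and 65.8, 33.9, 32.7 and 29.2 in siVPS4A+B#1. The siCTRL#1 libraries had 104.6, 87.0, 86.5, 94.6 and 92.0, and the NT libraries 70.6, 60.7, 48.2 and 58.1. All libraries with siVPS4B#1 lay below all siCTRL#1 libraries, but some of them overlapped NT. TGFA fell against siCTRL#1 by 1.12 in siVPS4B#1 (SE 0.18, limma adjusted p = 8.62e-06) and by 1.26 in siVPS4A+B#1 (limma adjusted p = 3.31e-07), lower in 4 of 4 batches each. Against siCTRL#2 the values were -0.54 in siVPS4B#1 and -0.04 in siVPS4B#2, under the fold threshold, and -0.69 in siVPS4A+B#1, which was called.

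With siVPS4B#2 the TGFA levels were 63.5, 72.9, 48.7 and 60.6, and with siVPS4A+B#2 they were 102.0, 73.0, 89.0 and 94.2. Against NT, TGFA was at -0.46 in siVPS4B#1 (limma adjusted p = 0.043), under the fold threshold, and at 0.05 in siVPS4B#2 (limma adjusted p = 0.887), while siCTRL#1 itself stood 0.65 above NT. In siVPS4A+B#1 it was at -0.61 against NT (limma adjusted p = 0.00647), a call that ended without replicate 1 of NT (-0.58) and without replicate 2 or 4 of siVPS4A+B#1 (-0.53 and -0.50). The siVPS4B#2 libraries lay below the siCTRL#1 libraries, and those of siVPS4A+B#2 overlapped them. The call for siVPS4B#2 (-0.61, limma adjusted p = 0.0169) ended at -0.57 without its replicate 1, at -0.55 without its replicate 3 and at -0.58 without replicate 4 of siCTRL#1. For siVPS4A+B#2 the value was -0.07 against siCTRL#1 (limma adjusted p = 0.78) and 0.59 against NT (limma adjusted p = 0.00786), and the value against NT was 0.52, past the threshold no longer, on scaling by library totals. The call against NT ended without replicate 2 or 3 of NT (0.58 and 0.53) and without replicate 1, 3 or 4 of siVPS4A+B#2 (0.57, 0.54 and 0.53). It also ended at 0.58 without replicate 3 of siVPS4A#2 or siVPS4B#2 or replicate 5 of siCTRL#1. The highest TGFA mean was that of siVPS4A#1 (111.1 ± 21.6), before siCTRL#1 (92.9 ± 7.35), siVPS4A+B#2 (89.5 ± 12.2), siVPS4A#2 (82.8 ± 13.3), siCTRL#2 (64.5 ± 19.7), siVPS4B#2 (61.4 ± 9.97), NT (59.4 ± 9.22), siVPS4B#1 (43.0 ± 7.59) and siVPS4A+B#1 (40.4 ± 17.1), and neighbours overlapped.

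**Figure D2:**
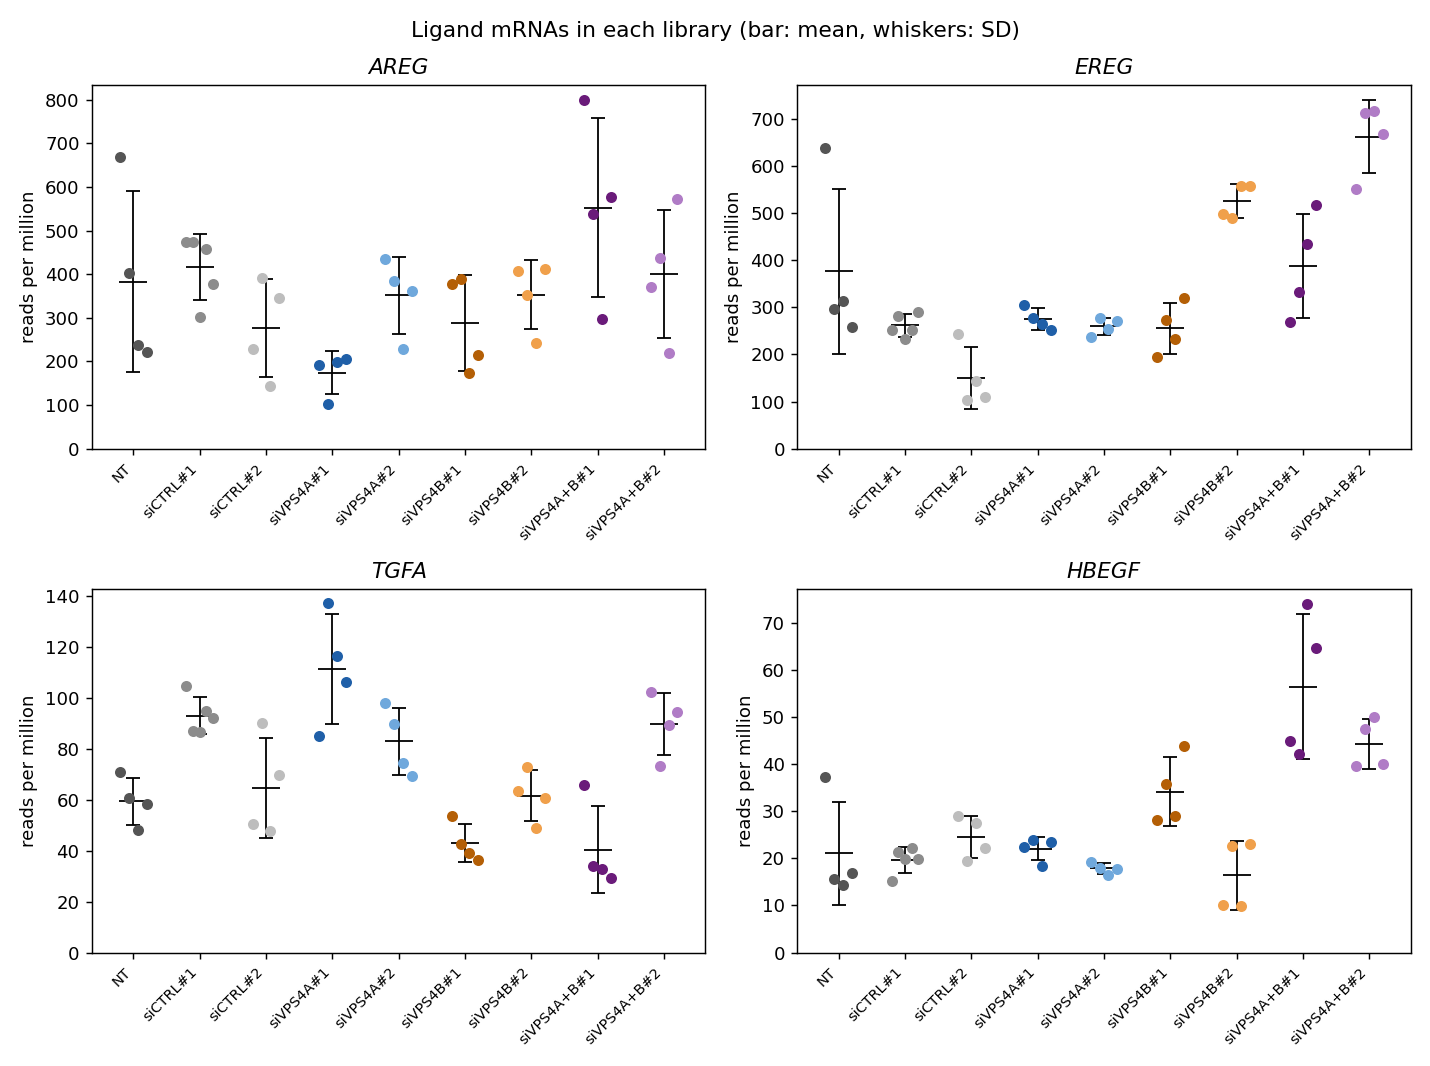
Level in rpm (vertical axis, from 0) of HBEGF, EREG, AREG and TGFA in each library of the 9 conditions; points are libraries, bars the condition means and whiskers their SD. HBEGF lay between 39.6 and 74.1 in combined silencing, above the NT maximum of 37.3.

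The plot of the ligands shows each gene with its own ordering of the conditions. HBEGF stood high in both duplex pairs, EREG in the conditions with siVPS4B#2, and TGFA stood low in those with siVPS4B#1. Replicate 1 of NT was the highest NT library for all 4 ligands.

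The 250 bases before the start of the genes were read from the RefSeq table for GRCh38.p14, which held 9 of the 10 members, all but ERBB3. Those of the ligands HBEGF, EREG and AREG and of the receptors EGFR and MET are printed as examples of both roles, chosen after their values were seen. Each is written 5′ to 3′ on the strand of its gene, from chr5:140346604-140346853 (minus) for HBEGF, chr4:74364895-74365144 (plus) for EREG, chr4:74444886-74445135 (plus) for AREG, chr7:55018767-55019016 (plus) for EGFR and chr7:116671946-116672195 (plus) for MET. Capitals mark any match, on either strand, to the AP-1 motif TGANTCA, to the cAMP response motif TGACGTCA, to the GC box GGGCGG, to the TATA box TATAAA or to the NF-kB motif.
HBEGF: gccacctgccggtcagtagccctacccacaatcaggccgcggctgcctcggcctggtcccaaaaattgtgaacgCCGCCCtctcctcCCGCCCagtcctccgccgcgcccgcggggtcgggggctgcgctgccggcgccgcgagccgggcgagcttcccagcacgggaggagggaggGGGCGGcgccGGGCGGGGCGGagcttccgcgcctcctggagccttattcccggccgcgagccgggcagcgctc
EREG: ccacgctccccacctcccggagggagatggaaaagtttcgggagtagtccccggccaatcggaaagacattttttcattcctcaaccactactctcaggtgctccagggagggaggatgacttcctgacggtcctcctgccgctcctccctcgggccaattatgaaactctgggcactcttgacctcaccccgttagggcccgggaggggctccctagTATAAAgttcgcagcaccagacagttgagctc
AREG: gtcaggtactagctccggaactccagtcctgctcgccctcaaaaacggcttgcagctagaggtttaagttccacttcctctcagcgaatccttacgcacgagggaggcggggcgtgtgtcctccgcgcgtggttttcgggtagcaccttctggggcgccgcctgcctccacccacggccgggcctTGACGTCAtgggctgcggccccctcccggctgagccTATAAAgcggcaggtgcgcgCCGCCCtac
EGFR: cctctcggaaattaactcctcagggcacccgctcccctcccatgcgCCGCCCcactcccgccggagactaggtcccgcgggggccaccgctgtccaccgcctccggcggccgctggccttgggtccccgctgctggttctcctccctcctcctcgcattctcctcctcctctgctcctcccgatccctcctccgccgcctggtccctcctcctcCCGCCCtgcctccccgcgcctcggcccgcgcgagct
MET: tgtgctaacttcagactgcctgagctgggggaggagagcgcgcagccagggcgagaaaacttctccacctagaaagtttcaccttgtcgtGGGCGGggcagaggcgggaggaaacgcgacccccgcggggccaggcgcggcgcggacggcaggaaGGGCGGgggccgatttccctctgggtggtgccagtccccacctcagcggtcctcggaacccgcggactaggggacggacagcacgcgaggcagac
The HBEGF window had 5 matches to GGGCGG, the nearest of them 53 bases before the start, and 2 of the 5 shared a base. EREG had TATAAA 27 bases before its start, and AREG had TATAAA at 24 bases, TGACGTCA at 58 and GGGCGG at 4. The EGFR window printed had GGGCGG at 31 and 199 bases, and MET had it at 90 and 155. The table holds another EGFR window, chr7:55109589-55109838 (plus, 38.8% GC), with TGANTCA at 130 and 226 bases, TATAAA at 31 and 141 and no GGGCGG. Of all 35116 promoter windows, 42.6% held GGGCGG, 10.7% TATAAA, 6.57% TGANTCA, 1.65% TGACGTCA and 9.96% the NF-kB motif. The GC content was 76.4% for HBEGF, 73.6% for the printed EGFR window, 68.4% for MET, 65.2% for AREG and 58% for EREG, beside a median of 58% over all windows. These matches are descriptions of the letters alone.

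EGFR (NM_005228, plus strand, chr7:55086710-55279321 in GRCh37) is the receptor of all 4 ligands. Its level was 224.4, 232.3, 196.2 and 250.5 rpm in siVPS4B#1 and 230.8, 226.1, 274.8 and 359.5 in siVPS4A+B#1. It was 103.4, 104.1, 68.1 and 63.0 in siVPS4B#2 and 108.6, 103.3, 94.2 and 93.7 in siVPS4A+B#2. The siCTRL#1 libraries had 144.5, 135.3, 110.8, 139.7 and 122.3, the NT libraries 218.7, 155.5, 137.3 and 158.8, and the siCTRL#2 libraries 181.7, 159.2, 139.2 and 147.7. Every library with siVPS4B#1 lay above every siCTRL#1 library and every library with siVPS4B#2 below it. The VPS4A duplexes gave 151.1 to 198.9 for siVPS4A#1 and 111.0 to 137.1 for siVPS4A#2.

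EGFR rose against siCTRL#1 by 0.76 in siVPS4B#1 (SE 0.15, limma adjusted p = 0.000124) and by 1.01 in siVPS4A+B#1 (limma adjusted p = 5.14e-07). It fell by 0.68 in siVPS4B#2 (limma adjusted p = 0.0013), a call that ended at -0.55 without replicate 4 of siVPS4B#2. Against NT the value in siVPS4B#1 was 0.44 (limma adjusted p = 0.0167), under the fold threshold, and that in siVPS4B#2 -0.99 (limma adjusted p = 3.01e-06). In siVPS4A+B#2 the value was -0.41 against siCTRL#1 (limma adjusted p = 0.02), under the fold threshold, and -0.72 against NT (limma adjusted p = 0.00012). The directions held in 4 of 4 batches. The condition means ran from siVPS4A+B#1 (272.8 ± 61.8) over siVPS4B#1 (225.9 ± 22.6), NT (167.6 ± 35.4), siVPS4A#1 (167.1 ± 22.1), siCTRL#2 (156.9 ± 18.4), siCTRL#1 (130.5 ± 13.8) and siVPS4A#2 (127.5 ± 11.5) to siVPS4A+B#2 (99.9 ± 7.28) and siVPS4B#2 (84.7 ± 22.1). Of these neighbours only siVPS4A#2 and siVPS4A+B#2 had ranges that did not overlap.

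MET (NM_000245, plus strand, chr7:116312250-116438431 in GRCh37) encodes the receptor for HGF. Its level was 263.6, 228.3, 181.0 and 243.5 rpm in NT and 311.0, 203.2, 246.4 and 215.2 in siCTRL#2, but 59.1, 51.0, 34.2, 57.6 and 45.5 in siCTRL#1. The siCTRL#1 libraries did not overlap those of the other controls. With the single duplexes, which were given with siCTRL#1, MET was at 35.3, 28.7, 26.9 and 23.3 for siVPS4A#1, at 64.0, 50.6, 40.7 and 49.4 for siVPS4A#2, at 93.7, 97.4, 99.9 and 150.0 for siVPS4B#1 and at 81.3, 75.3, 57.0 and 69.7 for siVPS4B#2. Without siCTRL#1, it was at 166.4, 163.1, 199.3 and 277.7 for siVPS4A+B#1 and at 73.9, 73.0, 71.3 and 65.9 for siVPS4A+B#2. All libraries that had received siCTRL#1, at either dose, lay below all libraries of NT and siCTRL#2.

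MET fell by 2.16 on the log2 scale in siCTRL#1 against NT (SE 0.15, limma adjusted p = 6.62e-13), lower in 4 of 4 batches. The value for siCTRL#2 against siCTRL#1 was 2.24 (limma adjusted p = 1.53e-14). In siVPS4A+B#1, MET was 1.95 above siCTRL#1 (limma adjusted p = 3.96e-13) and at -0.20 against NT (limma adjusted p = 0.317). In siVPS4A+B#2 it was 0.49 above siCTRL#1 (limma adjusted p = 0.00836), under the fold threshold, and fell by 1.66 against NT (limma adjusted p = 2.83e-11). The direction of the MET difference in combined silencing thus depended on the control, and against siCTRL#1, where the amounts differed, the dose of siCTRL#1 cannot be told apart from the silencing. Against NT the amounts of siCTRL#1 were equal, at 0 nM, but the total siRNA was 60 nM in the pairs and 0 nM in NT.

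At the same 30 nM of siCTRL#1, the single duplexes differed in MET. Against siCTRL#1, MET rose by 1.09 in siVPS4B#1 (limma adjusted p = 1.08e-06) and fell by 0.77 in siVPS4A#1 (limma adjusted p = 8.34e-05), a call that ended at -0.10 when the left-out library was kept in siVPS4A#1. The values were 0.48 in siVPS4B#2 (limma adjusted p = 0.032), under the fold threshold, and 0.01 in siVPS4A#2. Against NT, which received 0 nM of siCTRL#1, MET in siVPS4B#1 was at -1.06 (limma adjusted p = 1.22e-06), so its direction turned with the control here too. The condition means ran from siCTRL#2 (243.9 ± 48.3), NT (229.1 ± 35.2) and siVPS4A+B#1 (201.6 ± 53.3), which overlapped as neighbours, to siVPS4B#1 (110.3 ± 26.6), which did not overlap the neighbour on either side. Below it came siVPS4A+B#2 (71.0 ± 3.6), siVPS4B#2 (70.8 ± 10.4), siVPS4A#2 (51.2 ± 9.65), siCTRL#1 (49.5 ± 10.1) and siVPS4A#1 (28.5 ± 5.01), and these overlapped as neighbours.

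**Figure D3:**
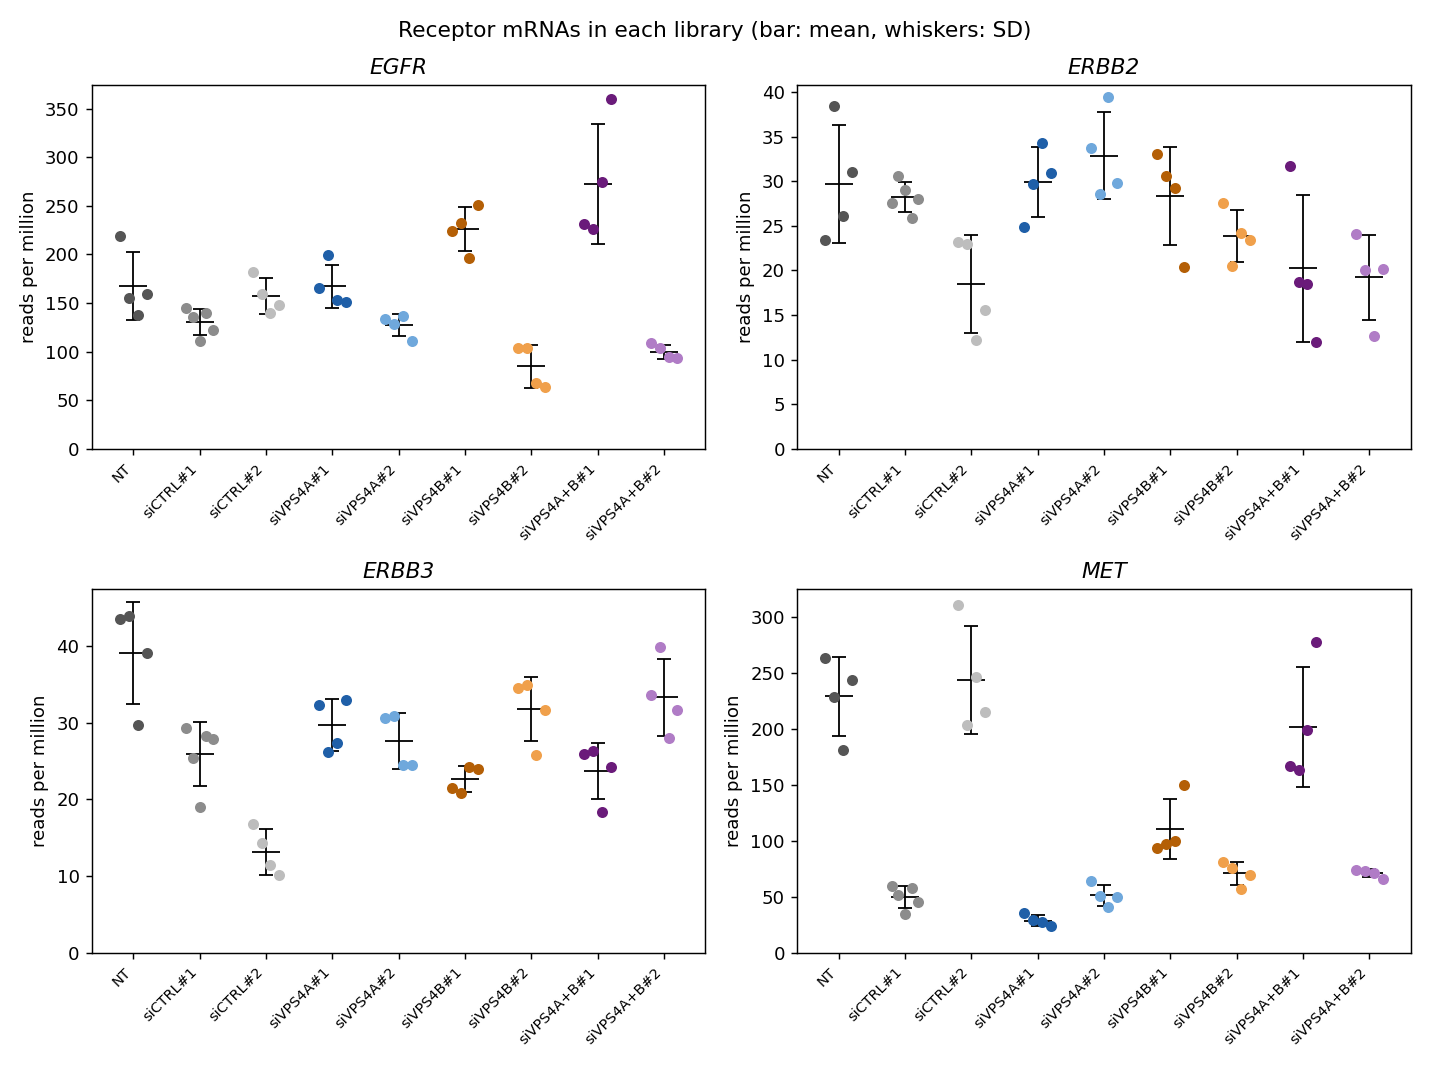
Level in rpm (vertical axis, from 0) of EGFR, ERBB2, ERBB3 and MET in each library of the 9 conditions; points are libraries, bars the condition means and whiskers their SD. MET lay between 34.2 and 59.1 in siCTRL#1 and between 181.0 and 263.6 in NT.

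The plot of the receptors shows the wide range of MET beside the narrower ranges of ERBB2 and ERBB3. For EGFR it shows the conditions with siVPS4B#1 above siCTRL#1 and those with siVPS4B#2 below it, with replicate 1 of NT reaching into the range of siVPS4B#1.

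ERBB2 (NM_004448, plus strand, chr17:37844167-37886679 in GRCh37) encodes the dimer partner of the family that has no known ligand of its own. Its libraries ranged from 12.02 to 39.4 rpm, and neighbouring conditions overlapped throughout the order from siVPS4A#2 (32.9 ± 4.91) to siCTRL#2 (18.5 ± 5.48). In combined silencing the ranges were 12.02 to 31.7 and 12.6 to 24.0. Against NT, ERBB2 fell by 0.59 in siVPS4A+B#1 (limma adjusted p = 0.016) and by 0.61 in siVPS4A+B#2 (limma adjusted p = 0.0109). Against siCTRL#1 the values of -0.53 (limma adjusted p = 0.0272) and -0.56 (limma adjusted p = 0.0169) were under the fold threshold. The call in siVPS4A+B#1 ended without replicate 2 or 4 of NT (-0.47 and -0.51) and without replicate 2 or 4 of siVPS4A+B#1 (-0.55 and -0.41). It also ended at -0.57 without replicate 1 of siVPS4A#1 or replicate 2 of siCTRL#1, and at -0.58 without replicate 5 of siCTRL#1 or replicate 3 of siVPS4A#2 or siVPS4B#2. The call in siVPS4A+B#2 ended without replicate 2 or 4 of NT (-0.50 and -0.53) and without replicate 3 of siVPS4A+B#2 (-0.44). Scaling by DESeq2 size factors ended both calls against NT (-0.57 and -0.58). Other settings moved ERBB2 the other way. It passed in all 4 comparisons without all libraries of replicate 1, with a mean of -0.80, and without replicate 1 of siCTRL#1, with a mean of -0.60. It passed in all 4 with the adjusted p alone as well. On scaling by library totals, which moved the median of all genes by -0.142 in siVPS4A+B#1 and by -0.107 in siVPS4A+B#2 against siCTRL#1, ERBB2 passed in all 4 comparisons.

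That scaling choice also moved the balance of calls in combined silencing, since 48.8% of the called genes were higher with TMM factors and 32.6% with library totals.

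ERBB3 (NM_001982, plus strand, chr12:56470583-56497289 in GRCh37) encodes a neuregulin receptor with weak kinase activity. It was highest in NT (39.1 ± 6.64) and lowest in siCTRL#2 (13.1 ± 2.97), whose range did not overlap that of siVPS4B#1, the neighbour above it (22.7 ± 1.7). In combined silencing it ranged from 18.4 to 26.3 and from 28.0 to 39.9. Against NT, ERBB3 fell by 0.70 in siVPS4A+B#1 (limma adjusted p = 4.8e-05, lower in 4 of 4 batches), and the value in siVPS4A+B#2 was -0.22 (limma adjusted p = 0.179). The values against siCTRL#1 were -0.09 in siVPS4A+B#1 and 0.38 in siVPS4A+B#2 (limma adjusted p = 0.0144), under the fold threshold.

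LRIG1 (NM_015541, minus strand, chr3:66429221-66551687 in GRCh37) encodes a membrane protein that promotes receptor degradation. Its level was 9.17, 6.14, 6.42 and 5.87 rpm in siVPS4A#1 and 8.8, 10.2, 4.48 and 6.85 in siVPS4A+B#2, each of which received siVPS4A#1. In siCTRL#1 it was 13.3, 13.2, 13.2, 13.9 and 12.3, in siVPS4A#2 13.9, 13.9, 12.5 and 12.6, and in siVPS4A+B#1 12.9, 9.74, 11.2 and 12.5. The libraries with siVPS4A#1 lay below all libraries of siCTRL#1 and siVPS4A#2 and overlapped those of siVPS4A+B#1. LRIG1 fell by 0.84 in siVPS4A#1 (SE 0.16, limma adjusted p = 3.45e-05) and by 0.81 in siVPS4A+B#2 (SE 0.16, limma adjusted p = 6.49e-05) against siCTRL#1.

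The value of LRIG1 was -0.03 in siVPS4A#2 and -0.22 in siVPS4A+B#1 (limma adjusted p = 0.303). The order of means began with siCTRL#2 (16.5 ± 2.62) and ended with siVPS4A+B#1 (11.6 ± 1.43), siVPS4A+B#2 (7.6 ± 2.5) and siVPS4A#1 (6.9 ± 1.53), and the 5 other conditions lay between 12.8 and 13.3. These levels rested on 28 to 180 reads a library.

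ERRFI1 (NM_018948, minus strand, chr1:8064464-8086369 in GRCh37) encodes MIG6, an inhibitor of the EGFR kinase. It was at 141.7, 50.0, 43.0 and 64.1 rpm in NT and at 32.7, 34.0, 19.1, 44.5 and 46.3 in siCTRL#1, with replicate 1 of NT far above the rest. ERRFI1 fell by 1.08 in siCTRL#1 against NT (limma adjusted p = 0.000171). In siVPS4A+B#2 it was at 45.7, 36.9, 49.5 and 74.1, overlapping siCTRL#1, and rose by 0.67 (SE 0.20, limma adjusted p = 0.00576), a call that ended at 0.52 without replicate 3 of siVPS4A+B#2, at 0.55 with no replicate block and at 0.54 with library totals. Against NT the value in siVPS4A+B#2 was -0.41 (limma adjusted p = 0.102) and against siCTRL#2 it was 0.10, so the sign against NT was the reverse of that against siCTRL#1. In siVPS4A+B#1 the value was 0.19, and against NT it was -0.89 (limma adjusted p = 0.000572).

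The controls themselves differed in several members. Against NT, siCTRL#1 differed in 4 members, beside 9.05% of all genes: MET, ERRFI1 and ERBB3 were lower and TGFA higher. The ERBB3 call (-0.60, limma adjusted p = 0.00103) ended at -0.58 without replicate 2 of NT, at -0.57 without replicate 2 of siCTRL#1, at -0.55 without replicate 3 of siCTRL#1 and at -0.58 without replicate 4 of NT. It also ended with no replicate block (-0.57), with library totals (-0.54) and without all libraries of replicate 2 (-0.55). The TGFA call (0.65, limma adjusted p = 0.00829) ended at 0.56 without all libraries of replicate 3 and at 0.61 with the left-out library kept.

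Between the non-targeting duplexes, siCTRL#2 differed from siCTRL#1 in 5 members, beside 16.8% of all genes. MET was higher in siCTRL#2, and EREG, AREG, ERBB2 and ERBB3 were lower. For ERBB3 the value was -0.91 (limma adjusted p = 6.37e-07). The ERBB2 call (-0.63, limma adjusted p = 0.0124) ended at -0.58 without replicate 3 of siCTRL#1 and at -0.47 without replicate 3 of siCTRL#2. The AREG call (-0.65, limma adjusted p = 0.00994) ended at -0.47 without replicate 1 of siCTRL#2 and at -0.58 without replicate 3 of either duplex. It also ended with no replicate block (-0.67) and without all libraries of replicate 1 or of replicate 3 (-0.53 for each).

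Each duplex pair was next compared with its own single duplexes. These comparisons differ in siCTRL#1 as well, 0 nM in the pairs and 30 nM in the singles, and in residual VPS4A. VPS4A was higher in siVPS4A+B#1 than in siVPS4A#2 by 1.13 (limma adjusted p = 0.000107) and in siVPS4A+B#2 than in siVPS4A#1 by 0.87 (limma adjusted p = 0.00527), and the part of either difference was not tested. Against siVPS4A#2, siVPS4A+B#1 differed in 6 members, beside 23.5% of all genes, and against siVPS4B#1 in 3, beside 9.88%. Against siVPS4A#1, siVPS4A+B#2 differed in 7 members, beside 17.5% of all genes, and against siVPS4B#2 in 2, beside 25.7%. With the left-out library kept, the counts were 4 against siVPS4A#1 and 1 against siVPS4B#1. No share of all genes is given for that fit, so these counts are not set against a background.

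HBEGF was called higher in each pair than in its single duplexes, and of these calls that against siVPS4B#1 was the least stable to the processing. The values were 1.57 against siVPS4A#2 (limma adjusted p = 1.04e-06) and 0.69 against siVPS4B#1 (limma adjusted p = 0.0376) for siVPS4A+B#1. They were 1.00 against siVPS4A#1 (limma adjusted p = 0.0021, higher in 3 of 3 batches) and 1.48 against siVPS4B#2 (limma adjusted p = 2.7e-06) for siVPS4A+B#2. With the left-out library kept, the value against siVPS4A#1 was 0.69 and was not called. The call against siVPS4B#1 ended without replicate 1, 2 or 3 of siVPS4B#1 (0.61, 0.73 and 0.63) and without replicate 3 or 4 of siVPS4A+B#1 (0.52 and 0.64). It also ended without all libraries of replicate 3 or of replicate 4 (0.49 and 0.74), with library totals (0.55) and with the left-out library kept (0.71).

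MET was higher in siVPS4A+B#1 than in siVPS4A#2 by 1.94 and than in siVPS4B#1 by 0.86 (limma adjusted p = 0.000115). It was higher in siVPS4A+B#2 than in siVPS4A#1 by 1.26 (limma adjusted p = 1.91e-07), with 0.01 against siVPS4B#2, and with the left-out library kept the value of 0.53 against siVPS4A#1 was not called. AREG was higher in siVPS4A+B#1 than in siVPS4B#1 by 0.93 (limma adjusted p = 0.000784) and than in siVPS4A#2 by 0.60 (limma adjusted p = 0.0154), the latter call ending at 0.49 without replicate 1 of siVPS4A+B#1 and at 0.57 without replicate 2 of siVPS4A#2. That call ended as well without all libraries of replicate 1 or of replicate 4 (0.52 and 0.58), with library totals (0.45) and with the left-out library kept (0.62), and both calls ended with no replicate block (0.93 and 0.60). AREG in siVPS4A+B#2 was 1.12 above siVPS4A#1 (limma adjusted p = 7.79e-05).

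ERBB2 differed between siVPS4A+B#1 and siVPS4A#2 by -0.74 (limma adjusted p = 0.00281) and between siVPS4A+B#2 and siVPS4A#1 by -0.65 (limma adjusted p = 0.0162). The first of these ended at -0.55 without replicate 4 of siVPS4A+B#1. The other ended at -0.62 without replicate 3 and at -0.53 without replicate 4 of siVPS4A#1, at -0.49 without replicate 3 of siVPS4A+B#2 and at -0.23 with the left-out library kept. LRIG1 in siVPS4A+B#2 differed from siVPS4B#2 by -0.78 (limma adjusted p = 0.000176), a call that ended at -0.54 without all libraries of replicate 3, and stood at 0.03 against siVPS4A#1. EGFR was called in opposite directions, at 1.07 in siVPS4A+B#1 against siVPS4A#2 and at -0.77 in siVPS4A+B#2 against siVPS4A#1. TGFA was called at -1.08 in siVPS4A+B#1 against siVPS4A#2. EREG and ERRFI1 were called at 1.29 and 0.90 in siVPS4A+B#2 against siVPS4A#1.

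The interaction of the duplexes, the difference between a pair and the sum of its single effects on the log2 scale, was tested in the same fit. It was called for 2 members in siVPS4A+B#1, beside 6.19% of all genes, and for 3 in siVPS4A+B#2, beside 18.3%. MET stood at 1.95 in siVPS4A+B#1 where its single effects summed to 1.10, an interaction of 0.85 (SE 0.22, limma adjusted p = 0.0128). In siVPS4A+B#2 it stood at 0.49 beside a sum of -0.29, an interaction of 0.78 (SE 0.22, limma adjusted p = 0.00916). The call in siVPS4A+B#1 ended at 0.72 without replicate 1 of siVPS4B#1 and at 0.69 without replicate 4 of siVPS4A+B#1. It also ended at 0.86 and 0.78 without all libraries of replicate 3 or of replicate 4, and at 0.94 with the left-out library kept. That in siVPS4A+B#2 ended at 0.14 with the left-out library kept. In this contrast the single conditions received 30 nM of siCTRL#1, the pair 0 nM and the siCTRL#1 reference 60 nM. A dose effect proportional to the amount on the log2 scale cancels in it. Any other effect of the dose cannot be told apart from the interaction, for MET and for the other members. MET in siVPS4A#2, with 30 nM, stood at 0.01 against siCTRL#1, with 60 nM. Against NT, with 0 nM, these conditions stood at -2.15 and -2.16. The MET values were therefore not in proportion to the amount, and the part of the dose in the MET interactions was not tested.

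AREG had an interaction of 1.18 in siVPS4A+B#1 (SE 0.28, limma adjusted p = 0.00558), with 0.36 in the pair beside a sum of -0.82. In siVPS4A+B#2 the interaction was 1.35 (SE 0.28, limma adjusted p = 0.000425), with -0.10 beside a sum of -1.46. The call in siVPS4A+B#1 ended, at 1.20, without all libraries of replicate 3. The pair thus lay near siCTRL#1 where the single effects summed to a lower level. HBEGF had an interaction of 1.32 in siVPS4A+B#2 (SE 0.32, limma adjusted p = 0.00297), with 1.15 beside a sum of -0.17, and of 0.80 in siVPS4A+B#1 (limma adjusted p = 0.156), with 1.46 beside 0.67. With the left-out library kept, the HBEGF interaction in siVPS4A+B#2 was 1.05 and not called, and the AREG interaction there was 1.08 and called.

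For the other members the interaction was not called in either pair. TGFA was at -1.26 beside a sum of -1.30 in siVPS4A+B#1 and at -0.07 beside -0.36 in siVPS4A+B#2. In the same order LRIG1 was at -0.22 beside -0.14 and at -0.81 beside -0.87, ERBB3 at -0.09 beside -0.02 and at 0.38 beside 0.54, and EGFR at 1.01 beside 0.70 and at -0.41 beside -0.31. EREG was at 0.53 beside -0.05 and at 1.34 beside 1.06, ERBB2 at -0.53 beside 0.20 and at -0.56 beside -0.14, and ERRFI1 at 0.19 beside 0.03 and at 0.67 beside -0.04.

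The plot of pairs and sums shows the pair to the right of the sum in both pairs for HBEGF, MET, AREG, EREG, ERRFI1 and TGFA, by 0.04 for TGFA in siVPS4A+B#1. For EGFR the pair stood on the same side of 0 as its VPS4B duplex, to the right in siVPS4A+B#1 and to the left in siVPS4A+B#2.

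A direct test between the duplex pairs, neither of which received siCTRL#1, found 5 members different, beside 17.4% of all genes. EGFR was lower in siVPS4A+B#2, with a log2 difference of -1.42 (limma adjusted p = 1.02e-09), and so was MET, with -1.46 (limma adjusted p = 2.29e-09), without overlap of the libraries. EREG was higher by 0.80 (limma adjusted p = 0.0034) and TGFA by 1.20 (limma adjusted p = 2.33e-06), again without overlap. LRIG1 was lower, with -0.59 (limma adjusted p = 0.0052), a call just past the fold threshold with 3 of 4 batches lower. It ended at -0.41 and -0.53 without all libraries of replicate 3 or of replicate 4, and at -0.58 without replicate 1 of NT or of siVPS4B#2. It also ended without replicate 1, 3 or 4 of siVPS4A+B#1 (-0.56, -0.53 and -0.55) and without replicate 3 or 4 of siVPS4A+B#2 (-0.42 and -0.56). For HBEGF the difference was -0.31 (limma adjusted p = 0.343). Residual VPS4A also differed between the pairs, at 19.96 ± 10.6 rpm in siVPS4A+B#1 and 5.03 ± 1.96 in siVPS4A+B#2 (SD), and its part in these differences was not tested.

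The genes whose condition means followed each member most closely were ranked by Pearson's r over the 9 conditions, among 9509 genes with a mean of at least 5 rpm. The points are condition means that share libraries with the member itself, and r is a description. For the ligands, HBEGF was closest to TFE3 (0.986), PEA15 (0.97) and LRRFIP2 (0.968), and EREG to NQO1 (0.964), ZNF107 (0.952) and ELF3 (0.923). AREG was closest to ARG2 (0.959), LYN (0.95) and BMAL2 (0.933), and the genes close to TGFA included AIMP2 (0.935) and BAG6 (0.914). TFE3 encodes a transcription factor of lysosomal genes, LYN a Src-family kinase and ELF3 an epithelial transcription factor.

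Among the receptors, EGFR was closest to UBAC2 (0.963), SERINC5 (0.948) and RNF215 (0.928), and MET to PRKCI (0.954), EIF1B (0.946) and DRAM2 (0.945). ERBB2 was closest to HAGHL (0.964), FAAH (0.94) and AP4M1 (0.936), and ERBB3 to TSEN54 (0.954), FIBP (0.948) and TRIM65 (0.943). PRKCI encodes an atypical protein kinase C. LRIG1 was closest to FZD6 (0.987), ACVR1B (0.986) and CDC23 (0.981), and ERRFI1 to THG1L (0.951), FAM120A (0.941) and POLR3C (0.901). No gene was named for more than 1 member.

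Genes that act with the members were counted by the same rule for combined silencing, which called 3.96% of all genes up and 4.16% down. HGF, the ligand of MET, was not listed. Of the 5 other listed ligands of the EGFR family, 0 were called by limma in either direction, 0 at an unadjusted p under 0.05 in all 4 comparisons and 0 by edgeR or DESeq2, with a median of -0.089 and NRG2 at the largest mean change, -0.61. Of 14 other receptor tyrosine kinases, DDR1 rose, with 0.80 and 0.78 against siCTRL#1 in siVPS4A+B#1 and siVPS4A+B#2, and FGFR2 fell, with -0.88 in siVPS4A+B#1 and a mean of -1.11 over the 4 comparisons, and the list median was -0.275. Of 6 genes in the list of ligand sheddases and iRhoms, ADAM17, which releases the EGF ligands, rose with 0.84 and 0.75, and the list median was 0.463. Of 21 genes of receptor ubiquitination and endocytosis limma called 0, with 1 higher at an unadjusted p under 0.05 in all 4 comparisons, 0 called by edgeR and 1 by DESeq2. The median of that list was 0.052, and CLTC, which encodes the clathrin heavy chain, had the largest mean change, 0.63. The median of all genes was -0.034.

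Of 19 feedback inhibitors, DUSP5 rose with 1.70 and 1.95, SOCS2 rose with 1.18 and 0.91, and DUSP6, an ERK phosphatase, fell with -1.70 and -1.80, around a list median of 0.013. Of 10 genes taken as ERK output, DUSP6 and the transcription factor ETV4 fell, ETV4 with -1.53 and -1.52, and the median was 0.017. Of 25 genes of the RAS-ERK and PI3K cascades, the adaptor GAB2 rose with 1.89 and 1.30 and PIK3R1 fell with -1.10 and -0.85, with a median of 0.039. These calls shared their libraries and controls with those of the members. The signalling activity of the pathways was not measured.

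**Figure D4:**
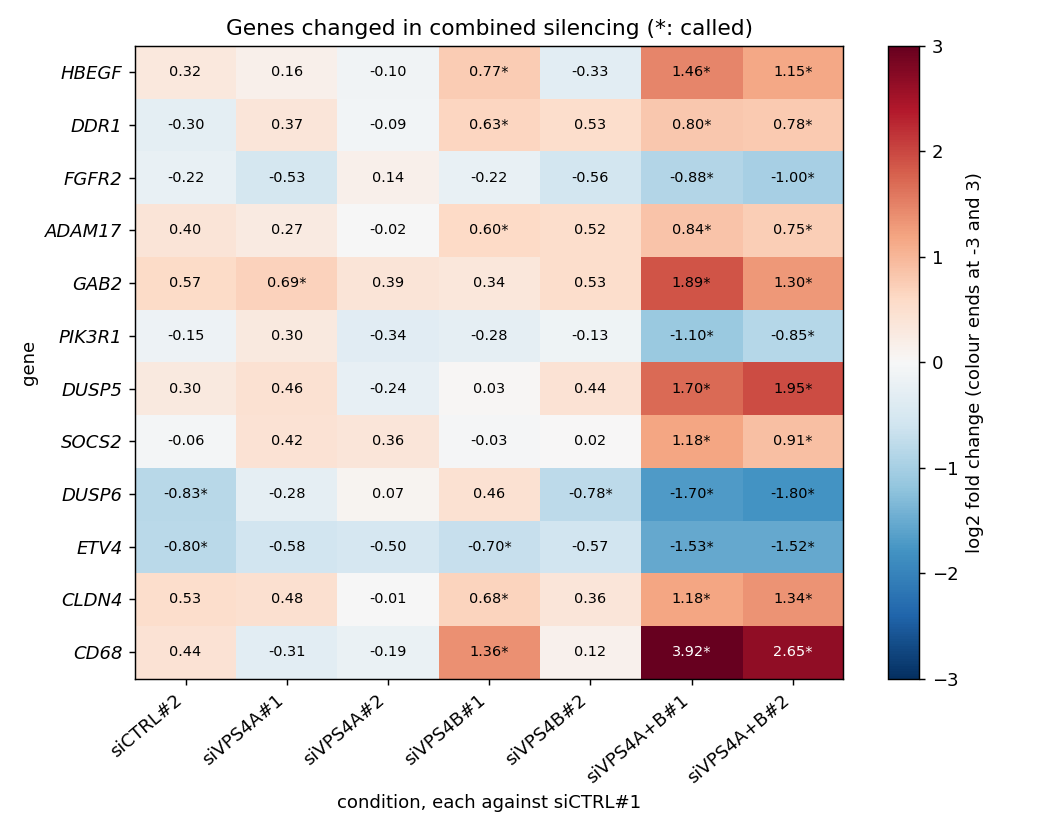
Log2 fold change against siCTRL#1 (colour and printed value, on log2(rpm + 1)) of the listed genes called in combined silencing (vertical axis) in siCTRL#2 and the silencing conditions (horizontal axis); stars mark the calls in that comparison. CD68 stood at 3.92 and 2.65 in the duplex pairs and DUSP6 at -1.70 and -1.80.

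The plot of the pathway genes sets these values beside those of the single duplexes. The genes were called in both pairs because the rule requires it.

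The cells were checked against markers of their label. Of 11 epithelial markers 9 were listed, and their summed level was 4743 ± 85.4 rpm in NT, 5582 ± 1015 in siCTRL#1, 7526 ± 432.7 in siVPS4B#1, 6342 ± 848.9 in siVPS4B#2, 8138 ± 650.2 in siVPS4A+B#1 and 6192 ± 321.3 in siVPS4A+B#2. CLDN4 was called higher (1.18 and 1.34 against siCTRL#1), and the list median in combined silencing was -0.043. Of 8 fibroblast markers 3 were listed, with sums of 18.2 in NT, 47.2 in siCTRL#1, 38.1 in siVPS4A+B#1 and 67.4 in siVPS4A+B#2, mostly from COL1A1 and VIM. Limma called 0 of these 3, with 0 at an unadjusted p under 0.05 in all 4 comparisons and 0 by edgeR and DESeq2, and the mean changes were 1.33 for COL1A1, -0.87 for VIM and -0.27 for PDGFRB, the list median. Of 7 blood and endothelial markers 2 were listed, CD68 and PECAM1, and the sums were 6.83 in NT, 8.64 in siCTRL#1, 23.2 in siVPS4B#1, 136.8 ± 35.7 in siVPS4A+B#1 and 58.0 ± 25.3 in siVPS4A+B#2. Nearly all of this came from CD68, which encodes a protein of late endosomes and lysosomes and which rose by 3.92 and 2.65 against siCTRL#1, while PECAM1 did not exceed 1.75 rpm in any analysed library. The part of these genes in the levels of the members was not tested.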

How the data were processed

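Transcripts had been measured with the Ion AmpliSeq panel, and the submitters' processing notes name HTSeq 0.6.0 and DESeq2 1.18.1. The deposited values are a signal in shares of each library that sum to 1. How the shares were made is not given in the sources used here. Dividing each library by its share for 1 read, fitted to its low values, returned whole reads in 100% of low values. The tolerance was 0.1 reads plus an allowance that grew with the value, so the check was looser for the larger of the low values. The 37 libraries of 9 conditions were fitted together with limma 3.58.1 on log2(rpm + 1), with TMM factors (0.881 to 1.1) from edgeR 4.0.16, condition and replicate number as terms, over all 12627 genes with Benjamini-Hochberg adjustment, in R 4.3.3. Figures and tables used Python 3.11.15, pandas 2.3.3, numpy 2.4.6 and matplotlib 3.10.9. A call needed a fold change of 1.5 and an adjusted p under 0.05. A floor of 3 reads is 0.589 per 1000000 of the smallest analysed library total before the TMM factor, for counting error only.

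The replicate number marks the batch in the labels. Over 9471 genes, deviations of libraries with the same number had a mean r of 0.185 (137 pairs) and those with different numbers -0.0819 (529 pairs), with 0.288, 0.081, 0.328 and 0.0155 within replicates 1 to 4. Replicates 1 and 4 of siCTRL#1 were the most alike, with a chi-square per gene of 2.5, where counting noise alone would give about 1 and the next pair had 6.52. The fits treat them as independent replicates, which was not tested, and the likeness within replicate 4 was near 0. The library labelled siVPS4A#1 replicate 2 was left out because it went against its label. In combined silencing edgeR called 542 genes up and 600 down, where limma called 500 and 525.

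The named genes were the members, VPS4A and VPS4B, genes of the other lists called in all 4 comparisons or else the gene of largest mean change in a list, the other genes of the short marker lists (VIM, PDGFRB and PECAM1, named after their values were seen), and for each member genes among the 3 of highest Pearson r over the condition means. Members and lists were chosen with earlier results of these data known, and the form of the deposited shares was assumed from earlier work on them until the table was read. Alternatives covered the replicate block, edgeR and DESeq2 1.42.0 on recovered reads, scaling by library totals or size factors, a pseudocount of 0.1, a filter on low counts, both call thresholds, fits on the compared conditions alone, siCTRL#2 as the control, the left-out library kept, and omission of each library or batch.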

Additional observations from a re-analysis of the deposited data

Results flagged for a closer look

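The libraries of each of the 10 members in each of the 9 conditions, 90 groups, were searched for a library far from the others. Of these groups 2 had one, where chance gives about 1 in 20 groups. MET was at 150.0 rpm in replicate 4 of siVPS4B#1, a gap to the next library of 0.862 of the group's range on the log2(rpm + 1) scale. AREG was at 102.7 rpm in replicate 3 of siVPS4A#1, a gap of 0.887 of the range on the same scale. The duplex pairs, which silence the same genes, differed from each other in a direct test of siVPS4A+B#2 against siVPS4A+B#1. The log2 differences were -1.42 for EGFR, -1.46 for MET, 0.80 for EREG, 1.20 for TGFA and -0.59 for LRIG1. In the library labelled siVPS4A#1 replicate 2, which no comparison used, EGFR was at 302.6 rpm and HBEGF at 58.3, above the highest control libraries at 218.7 and 37.3. The causes of these differences were not tested.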

How the results depend on the processing

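Of 69 calls of single members, 66 held with DESeq2, 67 with edgeR, 67 with DESeq2 size factors, 69 with a pseudocount of 0.1, 69 after a filter on low counts, 66 in fits on the compared conditions alone, 62 with library totals, 61 with no replicate block, 50 with the left-out library kept and 30 at a fold change of 2. Library totals ended AREG and TGFA against NT in siVPS4A+B#1 and siVPS4A+B#2 respectively, AREG in siVPS4A+B#1 against siVPS4A#2, HBEGF there against siVPS4B#1, ERBB3 in siCTRL#1 against NT, ERRFI1 in siVPS4A+B#2 against siCTRL#1 and LRIG1 between the pairs. With no replicate block the calls of AREG ended in siCTRL#2 against siCTRL#1 (-0.665) and in siVPS4A+B#1 against NT (0.592), siVPS4A#2 (0.603) and siVPS4B#1 (0.934). The AREG interaction of the first pair (1.2) and ERBB3 in siCTRL#1 against NT (-0.572) ended too. ERRFI1 ended in siVPS4A+B#2 against siCTRL#1 (0.549) and siVPS4A#1 (0.701). The AREG values stayed about as large as in the main fit. Fits on the compared conditions alone ended ERBB2 in siVPS4A+B#1 against NT (-0.563) and in siVPS4A+B#2 against siVPS4A#1 (-0.66), and LRIG1 between the pairs (-0.578). Besides the calls named with the members, keeping the left-out library ended ERBB2 in siCTRL#2 (-0.585) and TGFA in siVPS4B#2 (-0.565) against siCTRL#1. It also ended MET in siVPS4A+B#1 against siVPS4B#1, where the value was 0.874 beside 0.858 in the main fit. The call of HBEGF in combined silencing held under these and in each omission of a library or batch. With no replicate block the members with an interaction in the first pair numbered 1. Scaling by library totals gave 1 member down in combined silencing. Keeping the left-out library gave 1 member for siVPS4A+B#1 against siVPS4B#1, 4 for siVPS4A+B#2 against siVPS4A#1 and 1 for each interaction. With the adjusted p alone, 1 member was down and 15 pathway genes passed in combined silencing, and 8 members passed in siVPS4A+B#2 against siCTRL#1. The shares of all genes given earlier belong to the main rule, so none stands beside these counts or those at a fold change of 2. At a fold change of 2 the counts were 3 pathway genes, 1 member in siVPS4A#1, 2 in siVPS4B#1, 1 in siVPS4B#2 and 2 in siVPS4A+B#2 against siCTRL#1, 2 for siCTRL#1 against NT and 1 for siCTRL#2 against siCTRL#1. They were 0 for siVPS4A+B#1 against siVPS4B#1, 3 for siVPS4A+B#2 against siVPS4A#1, 1 against siVPS4B#2, 1 for the interaction of the first pair and 3 between the pairs. With siCTRL#2 as the control, 1 member passed for VPS4B silencing beside 2.58% of all genes, 2 for VPS4A silencing beside 1.01%, 7 in siVPS4A#1 beside 29.9%, 5 in siVPS4A#2 beside 17.2% and 5 in siVPS4B#2 beside 21.2%. Of 18 calls against siCTRL#1 10 held and 6 were no longer past the threshold (AREG in siVPS4A#1, EGFR, HBEGF and TGFA in siVPS4B#1, TGFA in siVPS4B#2 and ERRFI1 in siVPS4A+B#2). In 2 the sign changed, MET in siVPS4B#1 (-1.15, called lower) and in siVPS4A+B#1 (-0.29). The latter was not called in either direction (limma adjusted p = 0.142). On omission of a library or batch the counts ran from 0 to 1 for members down in combined silencing, 1 to 3 in siVPS4B#2, 3 to 7 in siCTRL#2, 2 to 5 for siVPS4A+B#1 against siVPS4B#1, 1 to 4 for siVPS4A+B#2 against siVPS4B#2 and 0 to 3 for the interaction of the first pair. The cause was not tested for these changes. Apart from the counts with siCTRL#2 as the control, no share of all genes is given at these settings. Those counts are therefore not set against a background. LRIG1 rested on 28 to 180 reads a library, and VPS4B after its silencing on 1 to 16.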

Other observations

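In the library labelled siVPS4A#1 replicate 2, MET was at 273.5 rpm, TGFA at 34.0, LRIG1 at 9.71 on 6 reads, CD68 at 169.9 and DUSP6 at 51.8 on 32 reads. For MET, TGFA and CD68 these lay within the range of siVPS4A+B#1. ERBB2 (8.09 on 5 reads), ERBB3 (17.8 on 11) and ERRFI1 (27.5 on 17) lay below it, with counting error not taken into account. So did LRIG1, just under the lowest siVPS4A+B#1 value of 9.736.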
